A study of Bos taurus with 30 samples.

Results

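Of the 27607 genes counted in the bovine endometrium-on-a-chip, 37 encode the enzymes, regulators and carriers of glycolysis, pyruvate use and the pentose phosphate pathway, and their transcripts are described here. They were chosen by name and by what they are known to do, with earlier results of these data known. They fall into 9 genes of glucose phosphorylation and upper glycolysis, 6 of lower glycolysis, 3 regulators of phosphofructokinase, 4 of lactate formation and transport, 6 of pyruvate entry into mitochondria and its dehydrogenase, 3 kinases of that dehydrogenase and 6 of the pentose phosphate pathway. All 37 passed the filter on low counts in every comparison.

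Glycolysis splits glucose to pyruvate in the cytosol, and pyruvate is either reduced to lactate and exported or taken into mitochondria and oxidised by the pyruvate dehydrogenase complex. The pentose phosphate pathway draws glucose 6-phosphate off to make NADPH and the ribose of nucleotides. In the endometrium, whose glands secrete glucose and lactate into the uterine fluid in which an early embryo lives, many of the steps are carried by isozymes encoded by different genes, and tissues differ in the isozyme they use.

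The cells came from uteri of non-pregnant cows in the early luteal phase. Epithelial cells were grown in the upper chamber of a microfluidic device and stromal enriched cells in the lower chamber, on either side of a porous membrane, and medium flowed through the device for 72 hours. In the glucose experiment the medium held 5 mM or 50 mM of glucose, and in the insulin experiment it held 5 mM of glucose with the vehicle (acetic acid in PBS) or with insulin at 1 or 10 ng/mL. Each cell type was sequenced from 3 replicates of each condition, giving 12 libraries in the glucose experiment and 18 in the insulin experiment. The study describes the 3 replicates as biological. Whether they came from separate cows is not stated there or in the labels. The p-values therefore measure the spread between these samples. Levels are given as CPM, each count divided by the total of its library and scaled up, and no gene length was used, so that levels are compared between libraries and not between genes. As these are bulk samples, fewer cells of a type and less RNA per cell cannot be told apart.

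The libraries held 13493503 to 16647701 counts in the glucose experiment and 8826470 to 13214728 in the insulin experiment, and a count of 0 would allow 0.180 to 0.340 CPM, for counting error only. The summed level of the 21 epithelial markers was 9268 to 17664 CPM in epithelial libraries and 20.3 to 404 CPM in the stromal libraries of the insulin experiment. In stromal libraries of the glucose experiment it was 100.05 to 719 CPM at 5 mM and 1082 to 6304 CPM at 50 mM. The median marker was at 67.5% of its epithelial level in the stromal library of replicate 3 at 50 mM and at 0.0176% to 15.0% in the other stromal libraries of that experiment. The 20 stromal marker genes summed to 23995 to 92929 CPM in stromal and 1178 to 7376 CPM in epithelial libraries, so that the markers matched both labels apart from that library. Of the other cell types, 4 of 7 leukocyte and 4 of 5 endothelial markers were found in the files, and they summed to 2.77 to 16.8 CPM and 2.66 to 76.9 CPM. The endothelial gene CDH5 was at 0 to 1.08 CPM in each group. The 5 smooth muscle and pericyte markers summed to 1100.4 to 7259 CPM in stromal and 17.2 to 534 CPM in epithelial libraries. The part of these cells in the differences between cell types was not tested. The epithelial library of replicate 2 at 5 mM also stood apart, with 1.86% of its counts on the 37 genes against 1.05% to 1.66% in the other epithelial libraries.

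Epithelial and stromal cells were compared in each condition to see which of the 37 genes separate the 2 cell types. In the insulin experiment most of glycolysis was higher in epithelial cells, led by the lactate carrier SLC16A3, HK2, PDK1, PFKFB3, PFKL and LDHA with log2 fold changes from 2.02 to 3.11. In the glucose experiment these same 6 genes were not called, and their epithelial and stromal libraries overlapped. PFKFB2, RPIA and SLC16A1 were higher in epithelial cells and ENO2 higher in stromal cells in all 5 conditions.

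A call required an adjusted p-value under 0.05 (edgeR's quasi-likelihood test with the replicate number as a block, Benjamini-Hochberg adjustment over all genes tested) and a log2 fold change beyond 0.1. Positive log2 fold changes stand for higher levels in epithelial cells. At 5 mM glucose, 3 of the 37 were called higher in epithelial cells and 1 was called higher in stromal cells, where 10.8% and 10.7% of all protein-coding genes tested were called. At 50 mM, 3 and 2 were called, against a background of 6.57% and 11%, which stands for 870 and 1458 genes and became 1458 and 1346 when libraries were scaled by their totals. In the insulin vehicle, 20 of the 37 were called higher in epithelial cells and 2 in stromal cells, against a background of 28.2% and 27.8%. At 1 ng/mL, 21 and 3 were called (background 29.9% and 29.5%), and at 10 ng/mL, 21 and 2 (background 27.3% and 27.6%). In the 3 insulin conditions the share of the 37 genes called higher in epithelial cells was thus above the background. At 5 and 50 mM of glucose it was near the background. As the 37 genes were chosen with earlier results of these data known, this share describes them and is not a test.

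The median log2 fold change of the 37 genes was 0.73, 0.73 and 0.71 in the vehicle, at 1 ng/mL and at 10 ng/mL, and 0.043 and 0.034 at 5 mM and 50 mM, with medians of all protein-coding genes near 0. Over the 9 epithelial and 9 stromal libraries of the insulin experiment, 25 of the 37 genes did not overlap, 22 in favour of epithelial cells and 3 of stromal cells, against 52.7% of all protein-coding genes tested in all 5 conditions. Over the 6 and 6 libraries of the glucose experiment, 5 did not overlap, 4 higher in epithelial cells and 1 in stromal cells, against a background of 23.7%. The libraries of a cell type are 3 replicates repeated over the doses, and those of the same number resembled each other. They are thus not 9 or 6 separate replicates. In all, 13 of the 37 were called in no condition, 20 in some and 4 in all 5, and 0 in opposite directions.

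**Figure D1:**
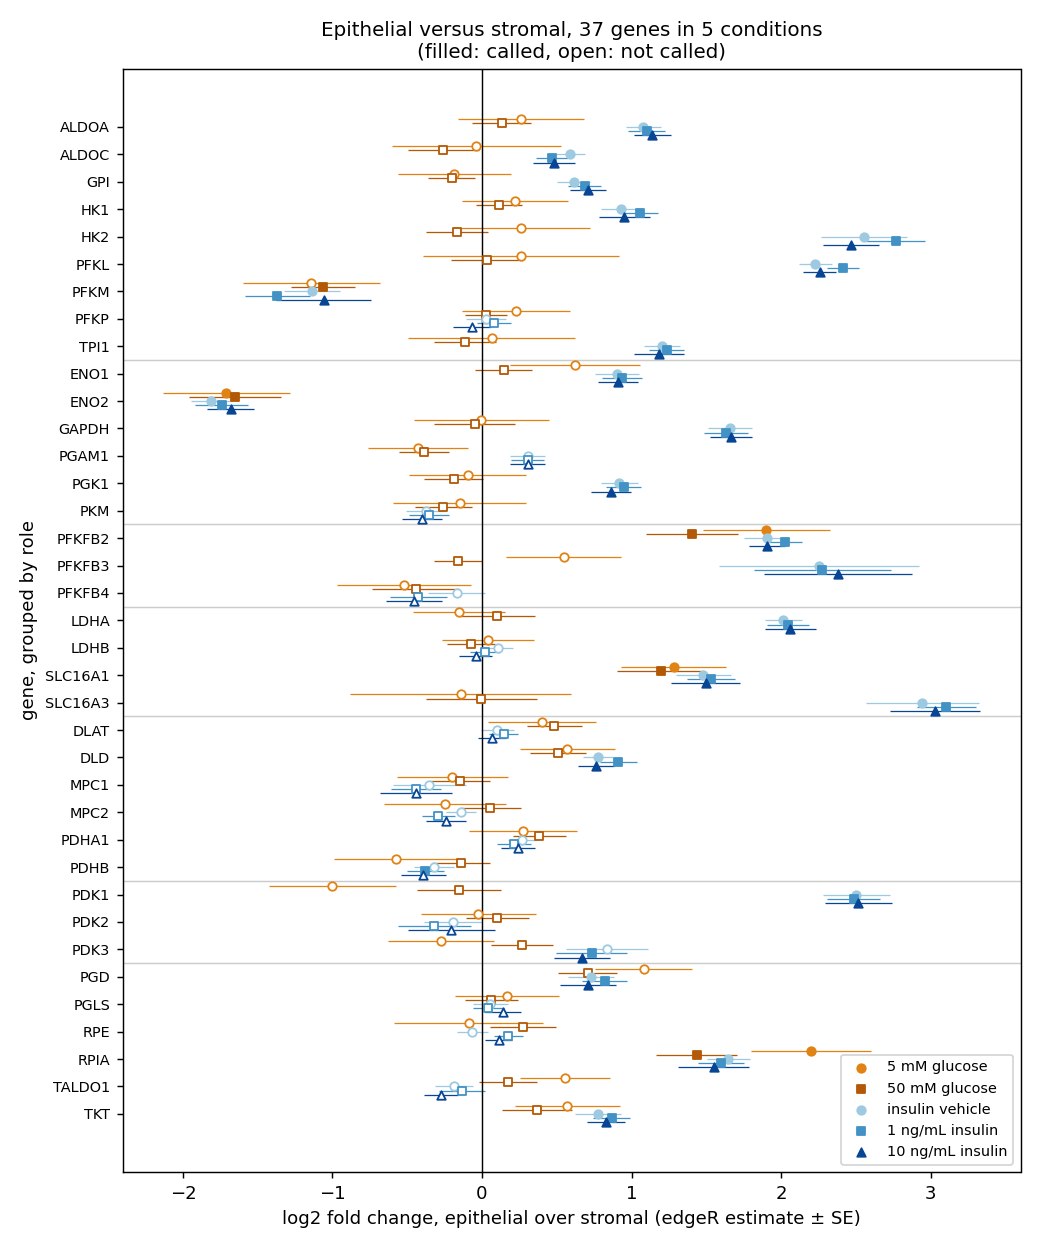
Log2 fold change of each of the 37 genes between epithelial and stromal cells (horizontal axis, edgeR estimate with its SE as a bar, 3 replicates per cell type) in 5 conditions. Genes are grouped by role from upper glycolysis at the top to the pentose phosphate pathway at the bottom, and filled symbols were called. The blue symbols of the insulin experiment lie to the right for most glycolytic genes, such as HK2, PFKL and LDHA, and the orange symbols of the glucose experiment lie near 0 for the same genes, while RPIA, PFKFB2, SLC16A1 and ENO2 keep their side in all 5.

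Hexokinases trap glucose in the cell as glucose 6-phosphate. HK2 (ENSBTAG00000013108), the inducible form, was at 269, 143 and 108 CPM in the 3 epithelial and 28.5, 24.99 and 24.5 CPM in the 3 stromal vehicle libraries. All 9 epithelial libraries of the insulin experiment lay above all 9 stromal ones, and the log2 fold changes were 2.47 to 2.77 (SE 0.186 to 0.289) with adjusted p = 0.00025 to 0.00278 (edgeR). Within the epithelial cells, replicate 1 had 255 to 269 CPM and replicate 3 had 108 to 112 CPM at every insulin dose, so that the replicates differed more than the doses. In the glucose experiment HK2 was at 77.2, 192 and 191 CPM in epithelial and 114, 80.04 and 117 CPM in stromal cells at 5 mM, and at 50 mM at 76.4, 87.3 and 189 and 97.6, 84.3 and 158 CPM. These libraries overlapped, and the log2 fold changes were 0.26 (SE 0.461) and -0.17 (SE 0.206). HK1 (ENSBTAG00000012380), the broadly expressed form, spanned 200.05 to 272 (median 256) CPM in epithelial and 97.1 to 139 (median 112) CPM in stromal libraries of the insulin experiment, with log2 fold changes of 0.93 to 1.06 (SE 0.119 to 0.169) that were called at each dose. In the glucose experiment it gave 0.22 (SE 0.357) and 0.11 (SE 0.152) and was not called.

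Glucose 6-phosphate isomerase, aldolase and triose phosphate isomerase, the steps around phosphofructokinase, followed the same pattern. GPI (ENSBTAG00000006396) spanned 357 to 419 (median 391) CPM in epithelial and 184 to 302 (median 219.8) CPM in stromal libraries with insulin or its vehicle. ALDOA (ENSBTAG00000012927), the main aldolase of most tissues, spanned 1137 to 1223 (median 1192) against 458 to 585 (median 502) CPM, and TPI1 (ENSBTAG00000019782) spanned 470.05 to 618 (median 583) against 194 to 272 (median 224) CPM. All 3 genes were called in the 3 insulin conditions, with log2 fold changes of 0.61 to 0.71 (SE 0.1098 to 0.119), 1.08 to 1.14 (SE 0.119 to 0.122) and 1.19 to 1.24 (SE 0.117 to 0.167). With 5 mM of glucose alone they had -0.18 (SE 0.379), 0.26 (SE 0.422) and 0.065 (SE 0.558) and were not called. ALDOC (ENSBTAG00000013099), the brain form of aldolase, had smaller differences of 0.47 to 0.59 (SE 0.09903 to 0.139) in the insulin conditions, which were called there and lost under at least 1 alternative setting or left-out replicate at 1 and 10 ng/mL.

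Phosphofructokinase commits sugar to glycolysis, and its 3 genes differed from each other. PFKL (ENSBTAG00000010658), the liver form, was at 398, 369.8 and 393 CPM in epithelial and 84.3, 70.97 and 79.3 CPM in stromal vehicle libraries. Its log2 fold changes of 2.23 to 2.42 (SE 0.107 to 0.111) had adjusted p-values of 6.99e-05 to 0.00124 (edgeR), the smallest of the 37 genes in each insulin condition. PFKL was at 168, 897 and 380.1 CPM in epithelial and 258, 195 and 381 CPM in stromal cells at 5 mM glucose, so that the epithelial replicates lay on both sides of the stromal ones and replicate 2 was highest. PFKM (ENSBTAG00000000286), the muscle form, was higher in stromal cells in 4 of the 5 conditions. It spanned 11.8 to 17.8 (median 13.7) CPM in stromal and 4.46 to 9.402 (median 6.57) CPM in epithelial libraries of the insulin experiment, without overlap, and had log2 fold changes of -1.06 (SE 0.215) at 50 mM and -1.14 (SE 0.457) at 5 mM, the latter with adjusted p = 0.148 (edgeR). The PFKM call at 50 mM was lost without the replicate block, without replicate 1 and without replicate 2, with log2 fold changes of -1.07, -0.94 and -1.02, and at 10 ng/mL it was lost with library totals and with each left-out replicate, whereas at 5 mM it was gained without replicate 2, with -1.61. PFKP (ENSBTAG00000002683), the platelet form, had differences between -0.068 and 0.23 and was called in no condition.

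The bifunctional PFKFB enzymes set the level of fructose 2,6-bisphosphate, the strongest activator of phosphofructokinase. PFKFB2 (ENSBTAG00000002126) was at 61.5, 68.6 and 54.3 CPM in epithelial and 20.6, 8.802 and 15.1 CPM in stromal cells at 5 mM glucose, and at 58.1, 52.9 and 61.6 and 18.3, 10.9 and 36.7 CPM at 50 mM. The highest stromal value was that of replicate 3 at 50 mM, the library with a high level of epithelial markers. In the insulin experiment PFKFB2 spanned 31.5 to 46.4 (median 41.9) CPM in epithelial and 7.26 to 13.3 (median 10.4) CPM in stromal libraries. The log2 fold changes were 1.90 (SE 0.422) at 5 mM, 1.40 (SE 0.309) at 50 mM and 1.90 to 2.03 (SE 0.118 to 0.151) in the insulin conditions, all called. At 50 mM the PFKFB2 call was lost without replicate 1 and without the replicate block. PFKFB3 (ENSBTAG00000008401), the inducible form with a high kinase activity, was at 248, 200.1 and 93.7 CPM in epithelial and 16.8, 40.8 and 50.4 CPM in stromal vehicle libraries. It was called in the 3 insulin conditions with 2.26 to 2.38 (SE 0.459 to 0.669), but in epithelial cells replicate 3 held 79.9 to 93.7 CPM against 200.1 to 285 CPM in replicates 1 and 2, and the call in the vehicle was lost without replicate 1 or without replicate 2. At 50 mM glucose its difference was -0.16 (SE 0.161). PFKFB4 (ENSBTAG00000006752) was called in no condition, and its log2 fold changes lay between -0.52 and -0.17.

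Lower glycolysis yields ATP and pyruvate. GAPDH (ENSBTAG00000014731), the triose phosphate dehydrogenase that is often used as a reference gene, was at 3235, 2828 and 2587 CPM in epithelial and 969, 799 and 819.6 CPM in stromal vehicle libraries. The epithelial level was above the stromal level in every library of the insulin experiment, with log2 fold changes of 1.63 to 1.66 (SE 0.138 to 0.148) and adjusted p = 0.000509 to 0.00175 (edgeR). With 5 mM of glucose it was at 1222, 2602 and 3025 CPM in epithelial and 1619, 1249 and 3013 CPM in stromal cells, with a difference of -0.0041 (SE 0.449). In all 4 groups of the glucose experiment, replicate 3 held the highest GAPDH level. PGK1 (ENSBTAG00000000894) and ENO1 (ENSBTAG00000013411), the phosphoglycerate kinase and the common enolase, were called in the 3 insulin conditions with 0.86 to 0.95 (SE 0.117 to 0.133) and 0.90 to 0.94 (SE 0.133 to 0.148), and had -0.10 (SE 0.38996) and 0.62 (SE 0.435) at 5 mM glucose, not called. PGAM1 (ENSBTAG00000012697) did not overlap in the insulin experiment, at 471 to 553 (median 515) CPM in epithelial and 330.4 to 438 (median 385) CPM in stromal libraries, but its log2 fold change of 0.31 (SE 0.1103 to 0.116) in each condition was not called, except by DESeq2 in the vehicle and with 2 other scalings at 1 ng/mL, and at 5 mM glucose it was -0.43 (SE 0.332). PKM (ENSBTAG00000001601), the pyruvate kinase of most tissues, went the other way without being called, at 1867 to 2221 (median 2092) CPM in epithelial and 2224 to 2751 (median 2468) CPM in stromal libraries of the insulin experiment, with -0.40 to -0.35 (SE 0.133 to 0.135). Without the replicate block, and by DESeq2, PKM was called higher in stromal cells in the vehicle and at 10 ng/mL.

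ENO2 (ENSBTAG00000011274), the neuronal enolase, was higher in stromal cells in all 5 conditions. Its stromal libraries held 11.3, 14.6 and 15.98 CPM at 5 mM and 11.8, 12.1 and 10.3 CPM at 50 mM glucose, and its epithelial libraries 3.86, 7.71 and 3.97 and 3.61, 3.12 and 5.69 CPM. With the vehicle, 1 ng/mL and 10 ng/mL of insulin the stromal values spanned 15.3 to 21.96 (median 19.8) CPM and the epithelial values 5.07 to 8.08 (median 5.82) CPM. No stromal library overlapped an epithelial one in either experiment, and the log2 fold changes were -1.71 (SE 0.422), -1.65 (SE 0.305) and -1.81 to -1.68 (SE 0.138 to 0.175). The ENO2 call was lost at 5 mM without replicate 1 or 3 and at 50 mM without replicate 1. Among all protein-coding genes tested in the 5 conditions, 8.39% were called higher in stromal cells in all 5.

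**Figure D2:**
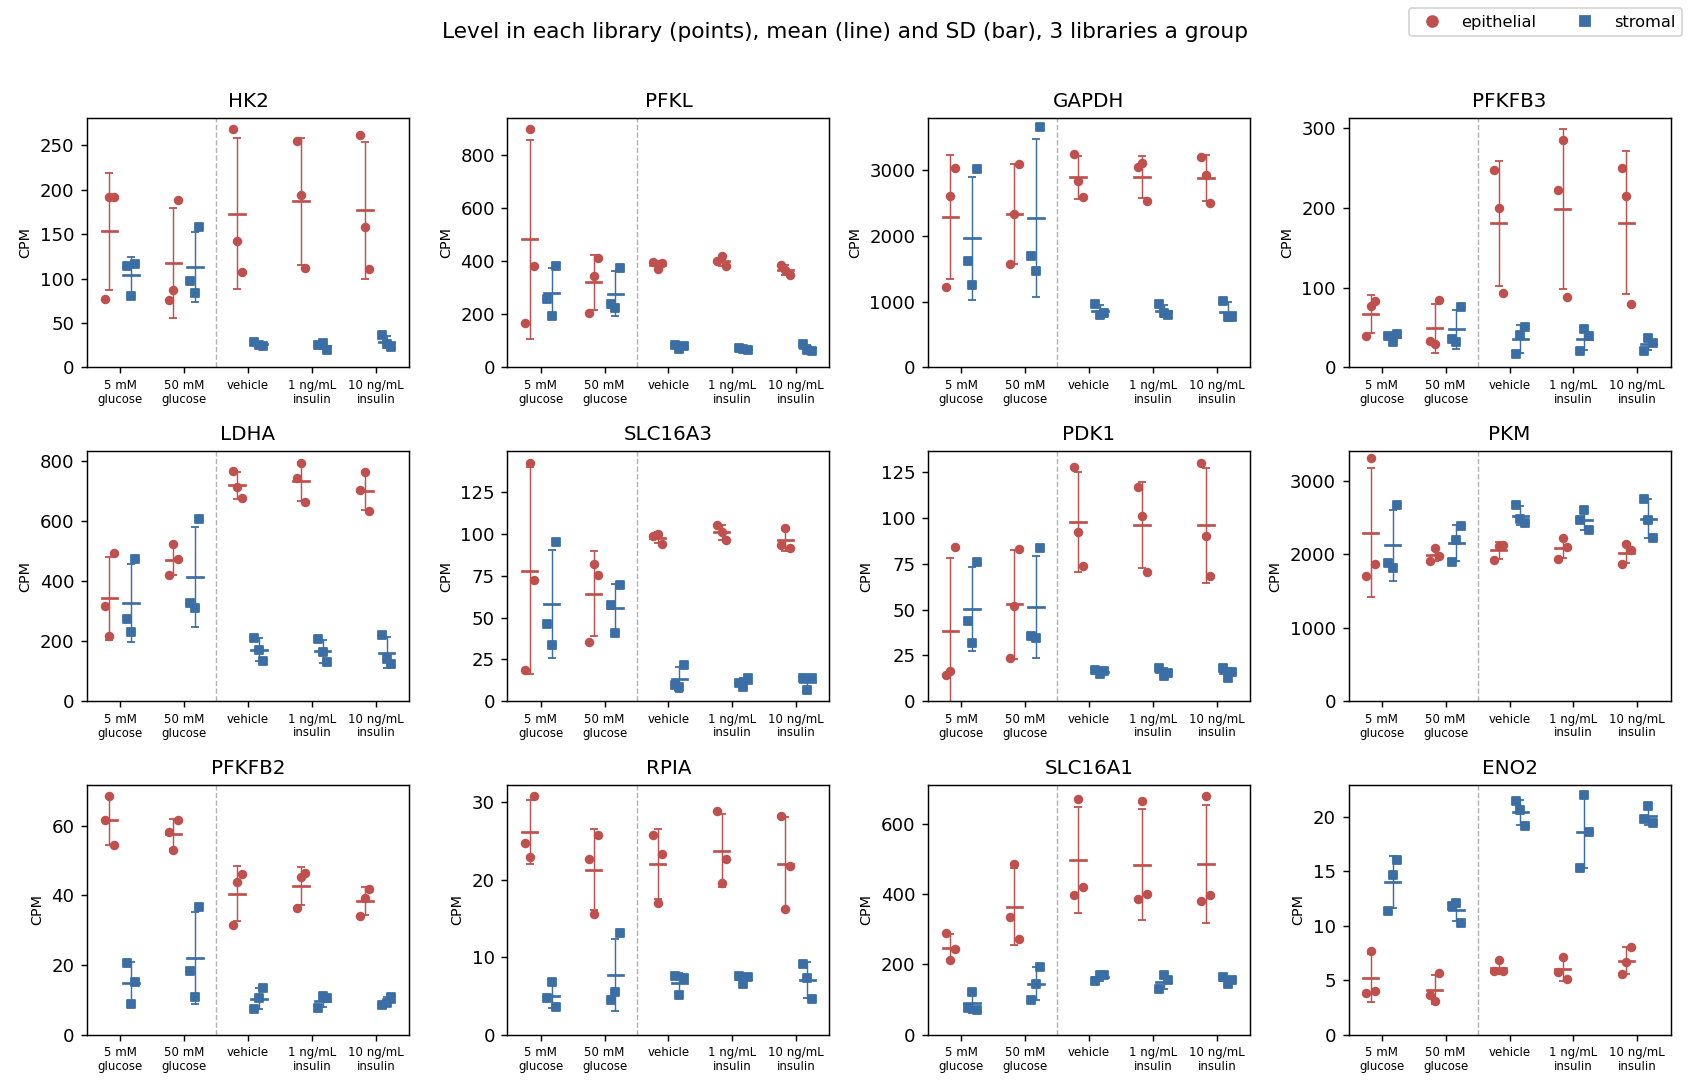
Level in CPM (vertical axes from 0) of 12 genes in each of the 30 libraries, by condition, with epithelial libraries as red circles and stromal libraries as blue squares. Lines are means and bars are SDs of 3 libraries, cut at 0, and the dashed line parts the glucose from the insulin experiment. HK2, PFKL, GAPDH, LDHA, SLC16A3 and PDK1 are apart between cell types on the right of the dashed line and overlap on its left, whereas PFKFB2, RPIA, SLC16A1 and ENO2 are apart on both sides.

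Lactate dehydrogenase turns pyruvate into lactate and back, and its A subunit favours lactate. LDHA (ENSBTAG00000008683) was at 767, 715 and 676 CPM in the epithelial and 210.3, 171 and 132 CPM in the stromal vehicle libraries. At 1 ng/mL the values were 743, 793 and 663 against 207, 162 and 131 CPM, and at 10 ng/mL 705, 764 and 634 against 220.1, 139.8 and 122 CPM. All epithelial libraries were above all stromal ones, with log2 fold changes of 2.02 to 2.06 (SE 0.124 to 0.1699) and adjusted p = 0.000223 to 0.00174 (edgeR). In the glucose experiment LDHA was at 316, 217 and 493 CPM in epithelial and 274, 229 and 474 CPM in stromal cells at 5 mM, and at 419, 522 and 475 and 327, 310.2 and 606 CPM at 50 mM. Both cell types overlapped, with -0.15 (SE 0.309) and 0.10 (SE 0.252). LDHB (ENSBTAG00000019603), the subunit of oxidative tissues, had nearly level values, 188 to 209 (median 198) CPM in epithelial and 159 to 217 (median 183) CPM in stromal libraries of the insulin experiment, and was called in no condition.

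Lactate leaves and enters cells through monocarboxylate carriers. SLC16A1 (ENSBTAG00000015107), known as MCT1, was at 289, 211 and 242 CPM in epithelial and 76.04, 121 and 71.1 CPM in stromal cells at 5 mM glucose, and at 335, 485 and 272 and 98.3, 143 and 192 CPM at 50 mM. In the insulin experiment it spanned 379.8 to 679 (median 399) CPM in epithelial and 129 to 170.2 (median 154) CPM in stromal libraries, and epithelial replicate 2 held 665 to 679 CPM against 379.8 to 420 CPM in the others. It was called in all 5 conditions, with 1.28 (SE 0.35003), 1.19 (SE 0.288) and 1.48 to 1.53 (SE 0.161 to 0.2304). At 5 mM the adjusted p was 0.0496 (edgeR), and the call was lost without the filter on low counts and without replicate 1 or 3, where the log2 fold changes were 1.29, 1.09 and 1.17. At 50 mM it was lost without the replicate block and without replicate 1 or 2, with 1.22, 1.04 and 0.96. SLC16A3 (ENSBTAG00000017461), known as MCT4 and as the exporter of highly glycolytic cells, was at 98.9, 100.1 and 94.2 CPM in epithelial and 9.36, 8.24 and 21.7 CPM in stromal vehicle libraries. Its log2 fold changes of 2.95 to 3.11 (SE 0.198 to 0.375) were the largest of the 37 genes in the 3 insulin conditions. At 5 mM glucose it was at 18.8, 143 and 72.7 CPM in epithelial and 45.9, 33.5 and 95.04 CPM in stromal cells, where the lowest and the highest values were both epithelial, and the difference was -0.14 (SE 0.739).

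Pyruvate enters mitochondria through the MPC1 and MPC2 carrier and is oxidised by the pyruvate dehydrogenase complex, and this step differed little between cell types. Of its 6 genes, DLD (ENSBTAG00000001908), the dihydrolipoamide dehydrogenase that other complexes share, was called in the 3 insulin conditions, with 79.1 to 104 (median 89.7) CPM in epithelial and 40.6 to 52.2 (median 48.3) CPM in stromal libraries and log2 fold changes of 0.76 to 0.91 (SE 0.0975 to 0.122). PDHB, the beta subunit of the first enzyme, was called higher in stromal cells at 1 ng/mL alone, with -0.38 (SE 0.124) and adjusted p = 0.044 (edgeR), and not called under 6 of the 8 alternative settings there, left-out replicates included. PDHA1, DLAT, MPC1 and MPC2 were called in no condition, with log2 fold changes between -0.44 for MPC1 at 10 ng/mL and 0.48 for DLAT at 50 mM glucose.

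The kinases of pyruvate dehydrogenase switch the complex off. PDK1 (ENSBTAG00000016836) was at 128, 92.5 and 73.6 CPM in epithelial and 16.8, 14.6 and 16.7 CPM in stromal vehicle libraries, with log2 fold changes of 2.49 to 2.52 (SE 0.177 to 0.225) in the insulin conditions and adjusted p = 0.00025 to 0.00194 (edgeR). At 5 mM glucose it was at 14.5, 16.7 and 84.5 CPM in epithelial and 43.6, 31.8 and 75.8 CPM in stromal cells, with -1.0001 (SE 0.424). Replicate 3 was highest in all 4 groups of the glucose experiment, at 75.8 to 84.5 CPM, and epithelial replicates 1 and 2 at 5 mM were the lowest of that experiment. PDK3 (ENSBTAG00000017832) was called at 1 and 10 ng/mL, with 0.73 (SE 0.237) and 0.67 (SE 0.186), and had 0.84 (SE 0.272) in the vehicle, with adjusted p = 0.0535 (edgeR). Its calls were lost without replicate 2 and without replicate 3 at both doses, and by DESeq2 at 1 ng/mL. PDK2 (ENSBTAG00000008744) was called in no condition and had -0.32 to 0.10.

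In the pentose phosphate pathway, RPIA (ENSBTAG00000002866), the ribose 5-phosphate isomerase that makes the sugar of nucleotides, was higher in epithelial cells in all 5 conditions. It was at 24.7, 22.97 and 30.8 CPM in epithelial and 4.76, 6.73 and 3.54 CPM in stromal cells at 5 mM, and at 22.6, 15.6 and 25.7 and 4.51, 5.53 and 13.05 CPM at 50 mM, where the highest stromal value was again that of replicate 3. In the insulin experiment it spanned 16.2 to 28.8 (median 22.7) CPM in epithelial and 4.61 to 9.16 (median 7.37) CPM in stromal libraries. The log2 fold changes were 2.20 (SE 0.402), 1.44 (SE 0.271) and 1.55 to 1.65 (SE 0.144 to 0.239), and no library overlapped. RPIA lost its call at 5 mM without replicate 3, and at 50 mM without replicate 1 or without the replicate block. Together with PFKFB2 and SLC16A1 it was among the genes called higher in epithelial cells in all 5 conditions, which made up 4.94% of all protein-coding genes tested.

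PGD (ENSBTAG00000013527), the 6-phosphogluconate dehydrogenase that yields NADPH, had no overlap in either experiment, with 222 to 316 (median 242) CPM in epithelial and 94.7 to 162 (median 116) CPM in stromal libraries of the glucose experiment. It was called in the 3 insulin conditions with 0.71 to 0.82 (SE 0.1497 to 0.186), while its 1.08 (SE 0.321) at 5 mM and 0.71 (SE 0.199) at 50 mM had adjusted p = 0.0646 and 0.0652 (edgeR), which passed at 5 mM in 4 of the 8 alternative settings, left-out replicates included. TKT (ENSBTAG00000003758), transketolase, was called in the 3 insulin conditions, at 0.77 to 0.87 (SE 0.123 to 0.155), with 356 to 538 (median 446) CPM in epithelial and 200.1 to 283 (median 223) CPM in stromal libraries. TALDO1, PGLS and RPE, the transaldolase, the lactonase and the ribulose 5-phosphate epimerase, were called in no condition, and their log2 fold changes ran from -0.27 for TALDO1 at 10 ng/mL to 0.56 for TALDO1 at 5 mM.

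Leaving out 1 replicate, which leaves 2 libraries a group, changed calls in the glucose and in the insulin conditions. At 10 ng/mL of insulin the calls of HK1, GPI, PFKM, ALDOC, PDK3 and PGD were lost without replicate 3. At 5 mM, 2, 6 and 1 of the 37 genes were called without replicate 1, 2 and 3, where replicate 2 holds the epithelial library that stood apart and PFKFB2 was called each time. At 50 mM, 0, 3 and 7 were called, where replicate 3 holds the stromal library with epithelial markers, and without the replicate block 1 was called, ENO2. The share of all protein-coding genes called in the same fits is not given. These counts therefore do not tell a change in the 37 genes from a change over the genome. The fold changes of the genes called at 5 and 50 mM kept their sign with each left-out replicate, and those at 50 mM ran from 1.03 to 1.78 for PFKFB2, 1.14 to 1.72 for RPIA, 0.96 to 1.58 for SLC16A1, -2.01 to -1.45 for ENO2 and -1.23 to -0.94 for PFKM. In the insulin conditions 22 genes were called at every dose, and 15 of them were called under every alternative setting and with every left-out replicate. The other 7, which were ALDOC, GPI, HK1, PFKFB3, PFKM, PGD and TKT, lost a call under at least 1 of these. How many protein-coding genes were called at every dose is not given, so that the 22 and 15 are not set against the genome.

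Ratios of isozyme counts within a library set the cell types apart in the same way, and as gene lengths cancel only between libraries, the ratios are compared between libraries. The LDHB to LDHA ratio was 0.252 to 0.317 in epithelial and 0.891 to 1.35 in stromal libraries of the insulin experiment, and 0.302 to 0.807 and 0.276 to 0.632 in the glucose experiment. The ENO2 to ENO1 ratio did not overlap in either experiment, at 0.00186 to 0.00294 against 0.0108 to 0.0166 with insulin or its vehicle and 0.00139 to 0.00220 against 0.00452 to 0.00923 with glucose. The PFKM to PFKL ratio was 0.0115 to 0.0258 in epithelial and 0.152 to 0.244 in stromal libraries of the insulin experiment, and 0.0141 to 0.0281 and 0.0316 to 0.0771 in the glucose experiment. The SLC16A3 to SLC16A1 ratio was higher in epithelial libraries with insulin or its vehicle, at 0.1497 to 0.274 against 0.0446 to 0.127, and overlapped with glucose, at 0.0652 to 0.675 against 0.276 to 1.34. The HK2 to HK1 ratio was 0.412 to 1.33 against 0.200 to 0.260 in the insulin experiment and overlapped in the glucose experiment, at 0.336 to 0.891 against 0.393 to 0.786.

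**Figure D3:**
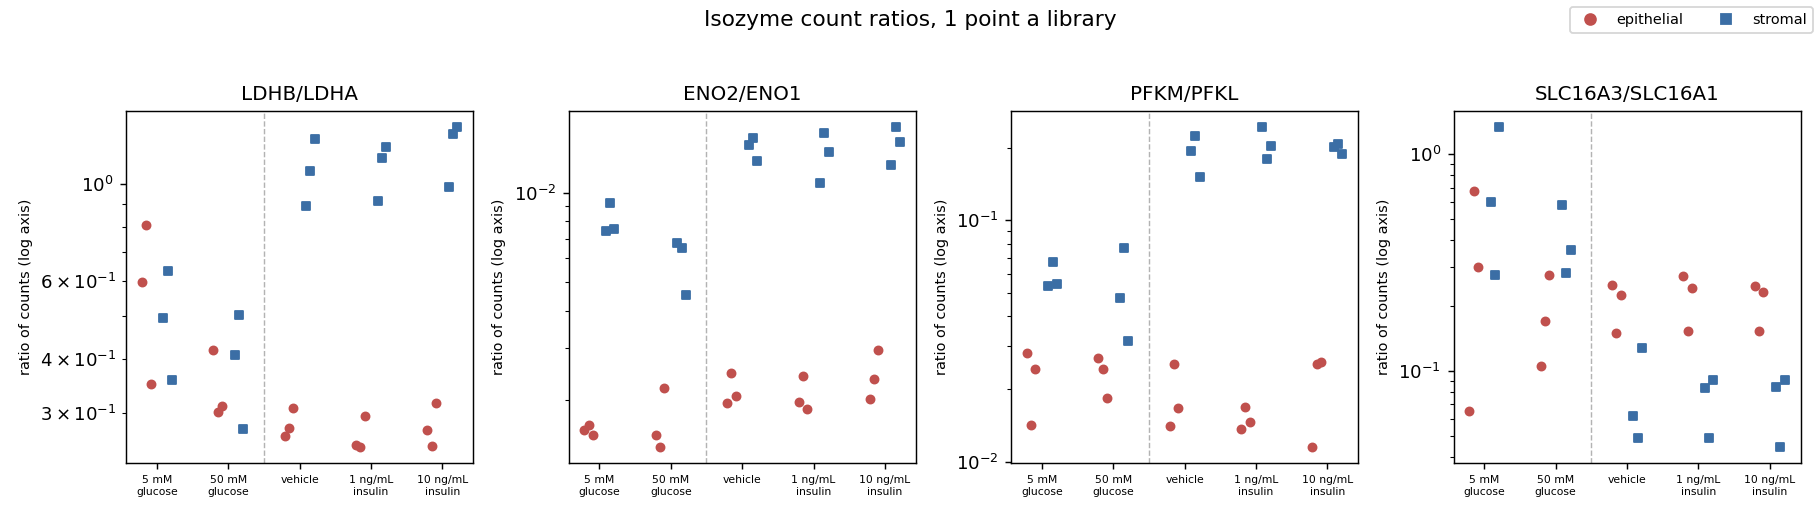
Ratio of the counts of 4 isozyme or carrier pairs in each of the 30 libraries (log axes), epithelial as red circles and stromal as blue squares, with the glucose experiment left of the dashed line. The ENO2 to ENO1 and PFKM to PFKL ratios are higher in every stromal library in both experiments, the LDHB to LDHA ratio parts the cell types on the right of the dashed line alone, and the SLC16A3 to SLC16A1 ratio is at most 0.127 in stromal libraries of the insulin experiment and at least 0.276 in those of the glucose experiment.

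Of 41 further genes of these pathways, such as those of gluconeogenesis, glycerol phosphate and the malate and aspartate shuttle, 34 to 36 were tested in each condition. With glucose, 5 were called higher in epithelial cells at 5 mM and 3 lower, and 1 and 3 at 50 mM. In the vehicle 8 and 7 were called, at 1 ng/mL 11 and 10, and at 10 ng/mL 10 each, and the median log2 fold changes were 0.20 and 0.070 with glucose and -0.050, -0.062 and -0.10 in the insulin conditions. The difference between these genes and the 37 was not tested.

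More of the 37 genes were called between the cell types in the insulin than in the glucose experiment, which alone does not show that the experiments differ. The groups with the same 5 mM of glucose were therefore set side by side, a comparison chosen after the values had been seen. In stromal cells, 10 of the 37 genes were called higher at 5 mM in the glucose experiment than in the insulin vehicle, and 3 were called lower, where 4.85% and 3.73% of protein-coding genes were called. The higher genes were HK1, HK2, PFKL, PFKP, ALDOA, TPI1, GAPDH, PDK1, PFKFB4 and SLC16A3, and the lower ones were RPE, DLAT and MPC2. HK2 was at 114, 80.04 and 117 CPM in the glucose experiment and 28.5, 24.99 and 24.5 CPM in the vehicle, a log2 difference of 2.14 (SE 0.167) with adjusted p = 0.0151 (edgeR). PFKL had 1.97 (SE 0.227), SLC16A3 2.28 (SE 0.502) and PDK1 1.79 (SE 0.2901), and LDHA had 1.07 (SE 0.274) with adjusted p = 0.0562 (edgeR) and was not called.

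Scaled by library totals, 6 were called higher and 4 lower, and the calls over all protein-coding genes went from 611 higher and 470 lower to 422 and 1211. With 2 libraries a group, 0 genes were called without replicate 1 or without replicate 3, and 3 (HK2, PFKL and PDK1) without replicate 2. The 13 fold changes kept their sign in all these fits, and ran from 2.05 to 2.27 for HK2, 1.74 to 2.10 for PFKL, 2.19 to 2.36 for SLC16A3 and 1.45 to 1.96 for PDK1. In the 3 stromal libraries at 5 mM the median epithelial marker was at 6.10%, 0.0176% and 0.0905% of its epithelial level, and in the vehicle at 0.0914%, 3.79% and 0.0505%. The epithelial markers of these libraries summed to 719, 349 and 100.05 CPM at 5 mM and to 22.8, 404 and 23.6 CPM in the vehicle, and their part in the difference was not tested.

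In epithelial cells 0 of the 37 genes were called between the experiments, against a background of 0%, and 6 had an unadjusted p under 0.05 by edgeR and 7 by DESeq2. The smallest were those of LDHA, at 316, 217 and 493 CPM at 5 mM and 767, 715 and 676 CPM in the vehicle, with -1.10 (SE 0.311) and adjusted p = 0.504 (edgeR), of SLC16A1, with -1.01 (SE 0.305), and of PFKFB3, with -1.44 (SE 0.458). When the difference between cell types was itself compared between the experiments over 12 libraries, again 0 genes were called, against 0% of all protein-coding genes. LDHA differed by 2.16 (SE 0.275) and PDK1 by 3.49 (SE 0.503), both larger in the insulin experiment, with adjusted p = 0.35 for each (edgeR). Of the 37, 10 had an unadjusted p under 0.05. For these counts of 6, 7 and 10 genes at an unadjusted p, the share of all protein-coding genes is not given. They are not read as a property of the 37 genes. DESeq2 called 5, which were LDHA, PDK1, HK2, SLC16A3 and GAPDH. A difference between the experiments was thus not shown by edgeR and was called by DESeq2 for these 5. The share of all protein-coding genes that DESeq2 called here is not given, so that the 5 are not set against the genome. The experiment cannot be told apart from the run, the cells and the medium that went with it.

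The comparison of 50 mM with 5 mM glucose asked whether a high glucose supply alters these genes within a cell type. In epithelial cells 0 of the 37 were called, as were 0% of all protein-coding genes. Without replicate 2, whose epithelial library at 5 mM stood apart, 0 of the 37 and 218 protein-coding genes were called. The median log2 fold change of the 37 went from -0.058 to 0.065. An unadjusted p under 0.05 was held by 6 of the 37, and the share of all protein-coding genes under that p is not given. The smallest adjusted p of the 37 was 0.804 (edgeR). At an unadjusted p under 0.05, 0 of the 37 passed by edgeR and 1 by DESeq2, which called 0. The log2 fold changes ran from -0.53 for PFKFB3 to 0.77 for PDK1, with a median SE of 0.267. PDK1 was at 14.5, 16.7 and 84.5 CPM at 5 mM and 23.7, 51.9 and 82.9 CPM at 50 mM, so that replicates 1 and 2 were higher at 50 mM and replicate 3 was not, with 0.77 (SE 0.354) and adjusted p = 0.804 (edgeR). SLC16A1, with 0.53 (SE 0.273), was higher at 50 mM in 3 of 3 pairs, and LDHA, with 0.54 (SE 0.298), in 2 of 3.

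In stromal cells 0 of the 37 were called (background 0%), the smallest adjusted p was 0.696 (edgeR), and 0 passed an unadjusted p under 0.05 by edgeR and 2 by DESeq2, which called 0. For these 2 the share of all protein-coding genes under that p is not given. LDHA was at 274, 229 and 474 CPM at 5 mM and 327, 310.2 and 606 CPM at 50 mM, higher in 3 of 3 pairs, with 0.28 (SE 0.111) and adjusted p = 0.696 (edgeR). SLC16A1 was at 76.04, 121 and 71.1 and 98.3, 143 and 192 CPM, also higher in 3 of 3 pairs, with 0.61 (SE 0.262). TALDO1 gave 0.32 (SE 0.152). Of the 37 genes, 13 were higher at 50 mM in all 3 pairs and 0 were lower in all 3, where 23.4% and 10.1% of all protein-coding genes tested were. In epithelial cells 2 were higher and 6 lower in all 3 pairs, where 12.8% and 16.8% were. In the same pairs the median epithelial marker was at 15.0%, 5.21% and 67.5% of its epithelial level at 50 mM and at 6.10%, 0.0176% and 0.0905% at 5 mM, and its part in these values was not tested. The difference between the cell types in the response to glucose was called for 0 of the 37 (background 0%), and its smallest unadjusted p-values were those of PDK1 with -0.84 (SE 0.4102), PDK3 with -0.54 (SE 0.327) and PFKFB3 with 0.70 (SE 0.451), where negative values are a lower response in stromal cells. An unadjusted p under 0.05 was reached by 0 of the 37 with edgeR, and DESeq2 called 0.

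**Figure D4:**
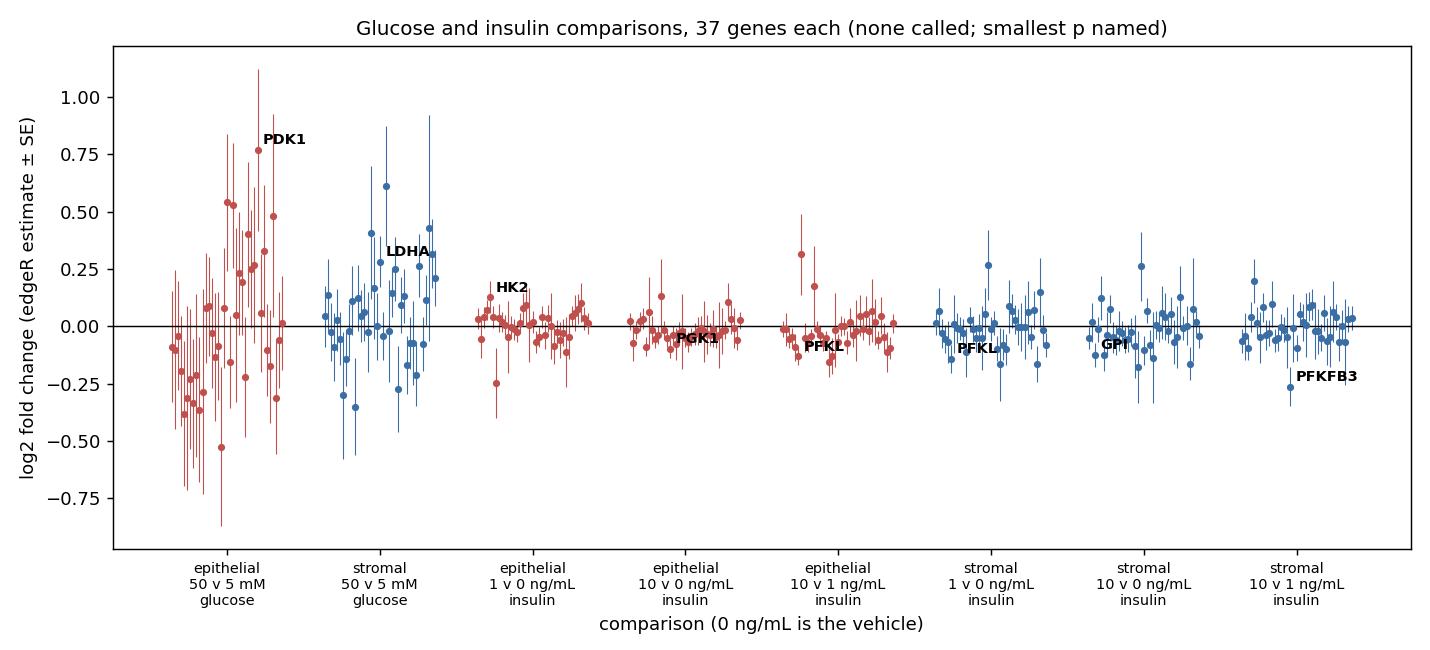
Log2 fold change (vertical axis, edgeR estimate with its SE as a bar) of the 37 genes in 2 glucose and 6 insulin comparisons, each within epithelial (red) or stromal (blue) cells with 3 replicates per group, with the gene of smallest p named. The points of the glucose comparisons scatter from -0.53 to 0.77, those of the insulin comparisons from -0.26 to 0.31, and none was called.

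The insulin doses were compared with the vehicle and with each other, to see whether these genes responded to insulin within a cell type. In epithelial cells 0 of the 37 genes were called at 1 ng/mL against the vehicle (background 0%), at 10 ng/mL against the vehicle (background 0.113%) or between the doses (background 0%). The 10 versus 1 ng/mL comparison had 0 genes higher and 10 lower in all 3 pairs, where 12% and 12.9% of protein-coding genes were. Against the vehicle, 5 were higher and 5 lower in all 3 pairs at 1 ng/mL (background 12% and 9.69%). At 10 ng/mL against the vehicle, 1 was higher and 3 were lower (background 14.2% and 12.4%). The median SE of a log2 fold change was 0.0486 to 0.0575, and all values lay between -0.25 and 0.31, both of PFKM. At an unadjusted p under 0.05, 0, 2 and 3 genes passed by edgeR and 0, 0 and 1 by DESeq2, which called 0 in each. For such counts, here and in the insulin comparisons below, the share of all protein-coding genes is not given. They are not read as a response of the 37 genes.

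The smallest p-values of these epithelial comparisons were those of enzymes of glycolysis. PFKL was at 398, 369.8 and 393 CPM in the vehicle, 401, 418 and 381 CPM at 1 ng/mL and 387, 366 and 346 CPM at 10 ng/mL. It was lower at 10 than at 1 ng/mL in 3 of 3 pairs, with -0.13 (SE 0.0414) and adjusted p = 0.983 (edgeR), and lower than in the vehicle in 3 of 3, with -0.088 (SE 0.0399). PGK1, at 1027, 1040.4 and 1062 CPM in the vehicle and 923, 1049 and 974 CPM at 10 ng/mL, had -0.10 (SE 0.0393), with adjusted p = 0.647 (edgeR), and -0.073 (SE 0.0339) between the doses. LDHB had -0.068 (SE 0.0417) at 10 ng/mL against the vehicle, and PFKFB2 had -0.16 (SE 0.0676) between the doses. At 1 ng/mL against the vehicle HK2 had 0.13 (SE 0.0697), PFKM -0.25 (SE 0.153) and HK1 0.072 (SE 0.0445). HK2 was at 269, 143 and 108 CPM in the vehicle and 255, 195 and 112 CPM at 1 ng/mL, where replicate 2 was the pair that differed most. Without replicate 1 HK2 and PFKFB3 were called there, with 0.28 and 0.26, and without replicate 2 HK2 was at -0.035. PFKFB3 was also called between the doses without replicate 1, with -0.31, and in epithelial cells it was at 248, 200.1 and 93.7 CPM in the vehicle, 223, 285 and 88.2 CPM at 1 ng/mL and 249.6, 215 and 79.9 CPM at 10 ng/mL.

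In stromal cells 0 of the 37 genes were called at 1 ng/mL (background 0%) or 10 ng/mL (background 0%) against the vehicle or between the doses (background 0.0244%). In all 3 pairs, 2 were higher and 4 lower at 1 ng/mL against the vehicle (background 8.29% and 18.1%). At 10 ng/mL against the vehicle, 1 was higher and 2 were lower (background 11.2% and 11.9%). Between the doses, 3 were higher and 1 was lower (background 15.5% and 7.69%). The log2 fold changes lay between -0.26 for PFKFB3 and 0.27 for PFKFB4, with a median SE of 0.0661 to 0.0684, and 1 gene in each comparison passed an unadjusted p under 0.05 by edgeR and 0 by DESeq2, which called 0. These were PFKL at 1 ng/mL, with -0.14 (SE 0.0616), GPI at 10 ng/mL, with -0.12 (SE 0.0534), and PFKFB3 between the doses, with -0.26 (SE 0.0843) and adjusted p = 1 (edgeR). PFKFB3 was at 16.8, 40.8 and 50.4 CPM in the vehicle, 20.3, 48.7 and 39.5 CPM at 1 ng/mL and 21.3, 37.4 and 30.7 CPM at 10 ng/mL, so that replicates 2 and 3 were lower at 10 than at 1 ng/mL and replicate 1 was not. Without replicate 1 it was called, with -0.36. RPE gave -0.16 (SE 0.0793) and -0.16 (SE 0.0723), PFKFB4 0.27 (SE 0.153) at 1 ng/mL and HK2 0.20 (SE 0.0956) between the doses.

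The difference between the cell types in the response to insulin was called for 0 of the 37 genes at 1 ng/mL, at 10 ng/mL and between the doses, against 0% of all protein-coding genes each time. An unadjusted p under 0.05 was reached by 1, 1 and 0 genes with edgeR, and DESeq2 called 0 in each. At 1 ng/mL the smallest unadjusted p-values were those of RPE with -0.24 (SE 0.102), PFKL with -0.18 (SE 0.0895) and HK1 with -0.12 (SE 0.0804), where positive values are a larger response in stromal cells. At 10 ng/mL they were those of LDHB with 0.15 (SE 0.06798), RPE with -0.19 (SE 0.103) and PFKFB4 with 0.28 (SE 0.188), and between the doses those of HK2 with 0.31 (SE 0.146), PGD with 0.11 (SE 0.0602) and PFKL with 0.16 (SE 0.0897). Of the 41 further genes of the pathways, 32 to 36 were tested in the glucose and insulin comparisons within a cell type and 0 were called.

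Across the 37 genes, the spread between replicates was wider in the glucose experiment. Over all genes with at least 20 counts, the chi-square per gene between 2 libraries of a group was 44.6 to 341 there and 17.4 to 36.7 in the insulin experiment. That measure grows with depth, and the glucose libraries were deeper. The wider spread is thus not read as a property of the 37 genes. The median coefficient of variation of a gene over the 3 replicates of a group was 36.9%, 18.6%, 17.6% and 23.1% in the epithelial groups at 5 and 50 mM and the stromal groups at 5 and 50 mM, and 10.6% to 17.4% in the 6 insulin groups. In stromal cells of the glucose experiment replicate 3 held the highest level for 24 of the 37 genes at 5 mM and for 30 at 50 mM, and in stromal cells of the insulin experiment replicate 1 held it for 31 in the vehicle, 19 at 1 ng/mL and 31 at 10 ng/mL. Such counts over all protein-coding genes are not given, so that these are not set against the genome. GAPDH, PGK1, ENO1, LDHA, TPI1, PGAM1, ALDOA and PKM have processed copies in mammalian genomes, and as the authors kept uniquely mapped reads, reads shared with such copies may be missing from their counts, so that their levels are uncertain.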

How the data were processed

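RNA of epithelial and stromal cells was sequenced as 75 bp single-end reads from stranded libraries. According to the methods and the submitters' processing notes, the authors checked reads with FastQC, removed adapters with Cutadapt and poor reads with fastq_quality_filter, and used Rsubread for alignment to the cow genome (Ensembl release 96). Unique alignments were kept and sorted with SAMtools and reads were counted per gene with featureCounts. The deposited gene counts were not normalized, and the strand setting of the counting is not given in the sources used here. The deposited comparison tables hold the authors' DESeq2 fold changes and p-values, which were not used, and only their gene symbols and gene types were read. Counts of calls over the genome cover protein-coding genes.

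Each comparison was fitted on its own libraries with edgeR 4.0.16 in R 4.3.3 (glmQLFit and glmQLFTest, TMM normalization, filterByExpr), with Benjamini-Hochberg adjustment over all genes tested. The replicate number was a block, since the methods state a paired sample design. Deviations from the group means correlated at 0.193 to 0.836 between libraries of the same number within a cell type and at 0.0363 to 0.515 between cell types. Differences between cell types in a response were fitted over all libraries of an experiment with the replicate within cell type as a block. The comparison of the experiments, added after the data were seen, had no block within a cell type and the replicate within experiment as a block for the difference. SE is the log2 fold change divided by the square root of the F statistic. Alternatives were no replicate block, DESeq2 1.42.0, its size factors, library totals, no filter on low counts and leaving out each replicate. No 2 libraries of the same group differed by less than sampling noise, and the scripts were tested on simulated data.

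The 37 genes, their roles and the list of 41 further genes were chosen with earlier results of these data known. Values were named by rule: per-library values for genes called in all 5 conditions, isozyme sets always, and for each treatment comparison the called genes or, with none, the 3 of smallest p. Other genes given per library were chosen after their values were seen.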

Additional observations from a re-analysis of the deposited data

How the results depend on the processing

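Of the values recomputed under the alternatives, 132 counts of called genes stayed within 1.5 times the reported count or at 0, and 12 did not. At 5 mM glucose, epithelial against stromal, 1 to 6 of the 37 genes were called with 1 replicate left out, where 4 were called with all 3. At 50 mM, 0 to 7 were called with 1 replicate left out and 1 without the replicate block, where 5 were called with all 3 and the block. For comparisons between cell types or experiments, counts with 1 replicate left out are given without the share of all protein-coding genes in the same fits. With libraries scaled by their totals, 3 and 2 of the 37 were called higher in each cell type at 50 mM, as reported, and the median log2 fold change of all protein-coding genes was 0.22 at 5 mM, 0.18 at 50 mM and 0.076 to 0.11 in the insulin conditions. Over all protein-coding genes DESeq2 called 192 between 50 and 5 mM in stromal cells, where edgeR called 0, and 0 at 10 ng/mL against the vehicle in epithelial cells, where edgeR called 14. With 1 replicate left out, edgeR called 0 to 218 protein-coding genes between 50 and 5 mM in epithelial cells and 0 to 49 in stromal cells, and 0 to 93 in the insulin comparisons within a cell type. With 1 replicate left out, 0 to 2 genes were called at 1 ng/mL against the vehicle in epithelial cells, 0 to 1 between the doses in epithelial cells and 0 to 1 between the doses in stromal cells, where 0 were called with all 3, and HK2 in epithelial cells at 1 ng/mL against the vehicle changed from 0.13 to -0.035 without replicate 2 (-0.035 to 0.28 over the 3 fits). The stromal difference between the experiments, 13 genes, fell to 0 to 3 with 1 replicate left out. DESeq2 called 5 of 37 where the difference between cell types was compared between the experiments and edgeR called 0, and DESeq2's share over all protein-coding genes is not given. The replicate block changed no other count by over 1.5 times. Over all 37 genes, comparisons and alternatives, 91 calls were lost, of 25 genes, and 34 were gained, of 15 genes, among 5328 recomputed values. Of the values of genes named by the stated rule, 462 kept their direction and side of the threshold, 54 lost the call, 5 gained it and 1 reversed. The causes were not tested. With 3 replicates a group, small changes of the genes at the lowest levels, such as PFKM, MPC1 and PDK2, are the least precise.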
